A study of Mus musculus with 23 samples.

Results

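TRBV29 is a variable segment of the mouse T-cell receptor beta chain, known in older nomenclature as Vbeta7. Its members here were chosen as the beta-chain entries whose V segment is V29, and the segment was picked because its share of clonotypes exceeded its share of counts. A clonotype is one pairing of a V and a J segment with one translated CDR3. Of 64436 clonotypes in the table, 35389 were TRB and 4686 were TRBV29, or 13.2% of the TRB clonotypes. A further 10 TRBV29 entries with an unresolved CDR3 residue were left out. TRBV29 held 208823 of 3479860 TRB counts, which is 6.001%. In RefSeq (GRCm38.p6) the gene is Trbv29 on chromosome 6, between Trbv28 and Trbv30, with the biotype V_segment_pseudogene. That biotype contrasts with the 4686 translated clonotypes listed here, of which 99.3% begin with cysteine and 99.4% end in phenylalanine. TRBV29 clonotypes were listed in all 23 libraries.

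The libraries came from a syngeneic mouse model built on NIL, a melanoma line carrying Nras Q61R that had been exposed to ultraviolet light to raise its mutation load. RNA of the model was used for T-cell receptor sequencing at D11 and D4 after 4 treatments: the combination of trametinib and BGB-283, trametinib alone, BGB-283 alone, or no drug (control). Trametinib inhibits the kinase MEK, and BGB-283 is an inhibitor of RAF kinases. Each of the 8 groups had 3 libraries except control D11, which had 2, for 23 in all. The labels give the tissue as a murine melanoma cell line and give no dose, strain, age or sex. They do not say that the numbered libraries are separate animals, so the p-values measure only the spread between libraries. Only receptor transcripts were listed, so markers of melanoma, or of T-cell subsets other than the receptor chains themselves, could not be checked. The alpha chains in the table were not examined here.

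The TRB counts per library ran from 32534 to 320420, with 151348 to 320420 in combination and 32534 to 186652 in control libraries. The lowest value in the table is 3 counts, and values pile up at 20. Of TRBV29 clonotypes with 20 counts or fewer, those at exactly 20 made up 5.63% ± 4.39 in combination libraries, 29.2% ± 17.4 under trametinib and 13.5% ± 6.92 under BGB-283, against 42.1% ± 26.2 in control libraries. Counts per clonotype are therefore compared within a library rather than between treatments.

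A beta chain is assembled in the thymus from one V, one D and one J segment, and bases are trimmed and added at the joins. The CDR3, which spans those joins, makes most of the contact with the antigenic peptide, whereas the V segment encodes the other 2 loops. A V segment can therefore be common among clonotypes because it is often rearranged or selected, and common among transcripts because a few clones carrying it have expanded. Vbeta7 is one of the beta chains paired with the invariant alpha chain of mouse NKT cells and one of those that respond to the endogenous superantigen Mls-1a.

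TRBV29 took a larger part of the clonotypes than of the counts in most libraries. Its clonotype share averaged 13.1% ± 2.56 and its count share 6.31% ± 4.85 (SD, n = 23). Because that gap chose the segment, it is described and not tested. In combination libraries at D11, the count share was 19.4%, 3.84% and 1.36%, beside clonotype shares of 18.9%, 14.4% and 11.4%. At D4 the combination count shares were 2.02%, 3.90% and 14.2%, beside clonotype shares of 11.2%, 11.1% and 13.6%. One library at each time had as large a share of counts as of clonotypes, and the other two had far smaller count shares.

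In trametinib libraries the count shares were 5.50%, 11.2% and 9.50% at D11 and 6.30%, 3.95% and 8.101% at D4. The clonotype shares were 13.1%, 17.3% and 16.1% at D11, and 13.4%, 14.1% and 15.7% at D4. All 6 trametinib libraries had a count share below the clonotype share.

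In BGB-283 libraries the count shares were 16.5%, 3.84% and 2.14% at D11 and 6.52%, 4.38% and 3.58% at D4. The clonotype shares were 11.2%, 11.99% and 8.95% at D11, and 13.9%, 14.2% and 12.5% at D4. The first D11 library was the only one of these with more counts than clonotypes, as a share.

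In control libraries the count shares were 3.68% and 7.11% at D11 and 1.64%, 4.01% and 2.61% at D4. The clonotype shares were 12.8% and 14.0% at D11, and 7.01%, 12.5% and 11.8% at D4. The lowest clonotype share of the series, 7.01%, rested on 15 TRBV29 clonotypes, and its 95% Wilson interval ran from 4.29% to 11.2%. These intervals and all floors cover counting error only.

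**Figure D1:**
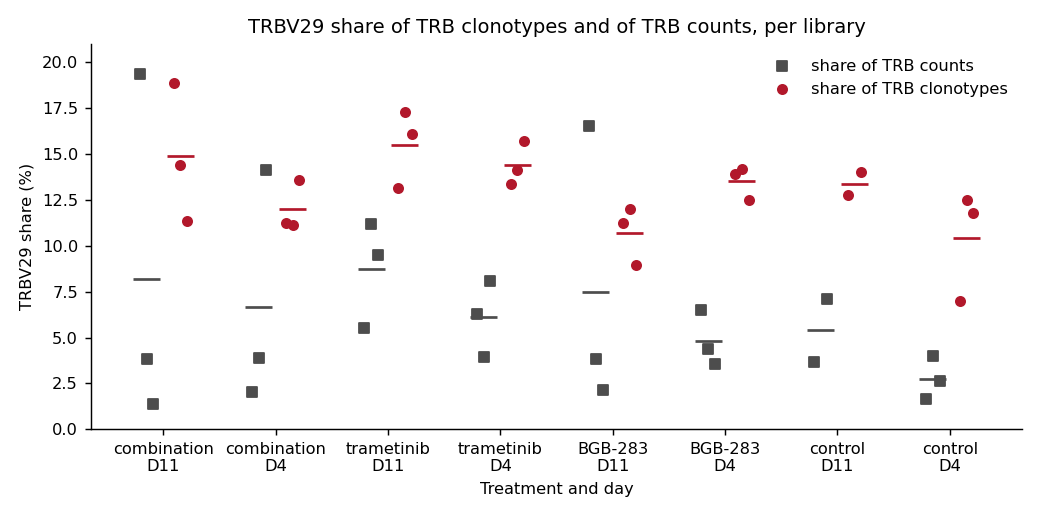
Each point is 1 library; squares give the TRBV29 share of TRB counts and circles its share of TRB clonotypes, in percent, by treatment and day, with a line at the mean of each group. The count share lies below the clonotype share except in 3 libraries, where it reaches 14.2%, 16.5% and 19.4%.

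TRBV29 was first among the 24 TRBV segments by clonotypes in 6 of 23 libraries and among the first 3 in 22. By counts it was among the first 3 in 5 libraries and outside the first 4 in 17, with rank 15 as its lowest. The log2 ratio of count share to clonotype share was below 0 in 20 of 23 libraries, with a mean of -1.38 ± 0.85 (SD, n = 23) and a range from -3.06 to 0.56. A ratio below 0 was not particular to TRBV29. The median ratio was below 0 for 21 of the 24 segments, and TRBV17 lay below 0 in 21 libraries. Taken from the shares averaged over libraries, the ratio of TRBV29 was -1.05, the lowest of the 24 segments. TRBV24, with 41 clonotypes, followed at -1.03 and TRBV21, with 19, at -0.65. The first place depended on the processing: TRBV29 was in place 2 with estimated molecules or thinned counts, 3 without the largest clonotype of each segment and 4 without clonotypes under 20 counts. Over the 15 libraries that list it, TRBV24 had the lower mean ratio, -1.74. Among the 18 segments present in all libraries, TRBV29 had the lowest ratio in 14 of 23.

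Over the 23 libraries, the segments whose ratio lay nearest that of TRBV29 were TRBV17 (mean absolute difference 1.01), TRBV1 (1.06) and TRBV19 (1.16). TRBV31 came nearer, at 0.82, over the 22 libraries that list it, as did TRBV21 at 0.84 over 8 and TRBV22 at 0.98 over 9. Even the nearest segments thus differed from TRBV29 by close to 1 log2 unit in a typical library.

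**Figure D2:**
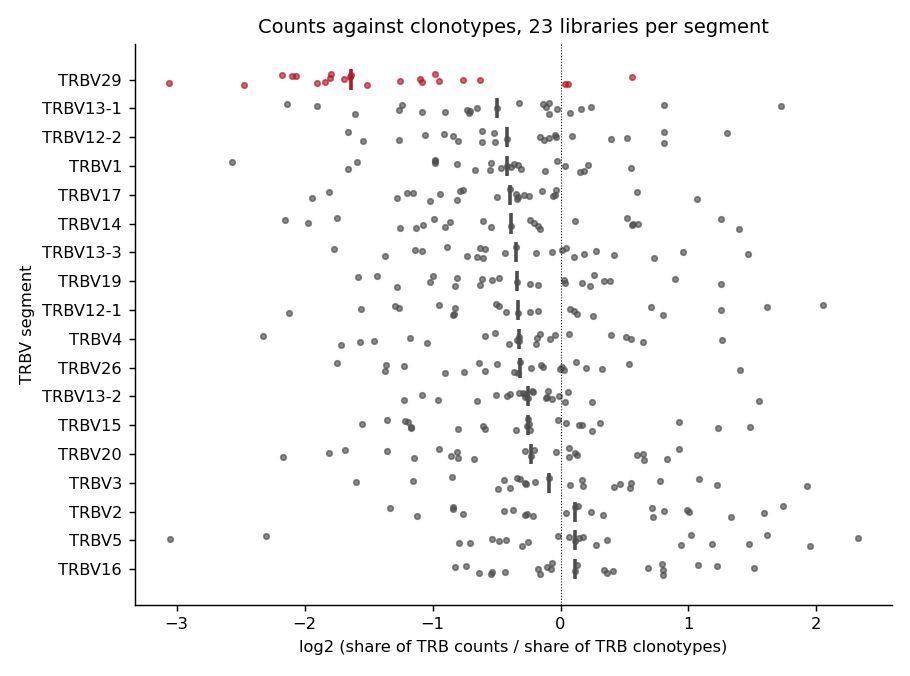
Each point is 1 of 23 libraries for 1 of the 18 TRBV segments listed in every library, placed by the log2 ratio of its share of TRB counts to its share of TRB clonotypes; bars mark medians and 0 means equal shares. TRBV29 has a median of -1.64 and 3 points above 0, and TRBV16 has a median of 0.11.

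The clonotypes of TRBV29 were small in the typical case. The segment was chosen for few counts beside many clonotypes, which favours small clonotypes, so their sizes are described and not tested. The median TRBV29 clonotype had fewer counts than the median of the other TRBV segments in all 23 libraries, at 18.6 ± 9.18 counts against 29.4 ± 10.9 (mean of library medians, SD, n = 23). In the combination the library medians averaged 10.3 ± 3.19 counts for TRBV29 and 17.4 ± 4.76 for other TRBV (n = 6). In control they averaged 27.5 ± 9.04 counts for TRBV29 and 42.8 ± 5.23 for other TRBV (n = 5).

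Clonotypes of 20 counts or fewer made up 59.8% ± 14.7 of TRBV29 and 44.7% ± 9.46 of other TRBV clonotypes, and the TRBV29 share was the higher in 21 of 23 libraries. Trametinib D4 replicate 1 and control D4 replicate 2 were the exceptions. Small clonotypes were also common in the other segments with the most clonotypes. Pooled over libraries, they made up 67.6% for TRBV29, 59.4% for TRBV16, 56.9% for TRBV3 and 55.7% for TRBV19. In rarer segments the share ranged widely, from 23.1% in TRBV22 (13 clonotypes) and 40.8% in TRBV26 to 63.4% in TRBV24 (41 clonotypes). Clonotypes over 1000 counts made up 0.351% ± 0.550 of TRBV29 and 1.53% ± 0.994 of other TRBV clonotypes. They held 19.2% ± 26.4 of TRBV29 counts, against 50.1% ± 17.5 of the counts of other TRBV.

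**Figure D3:**
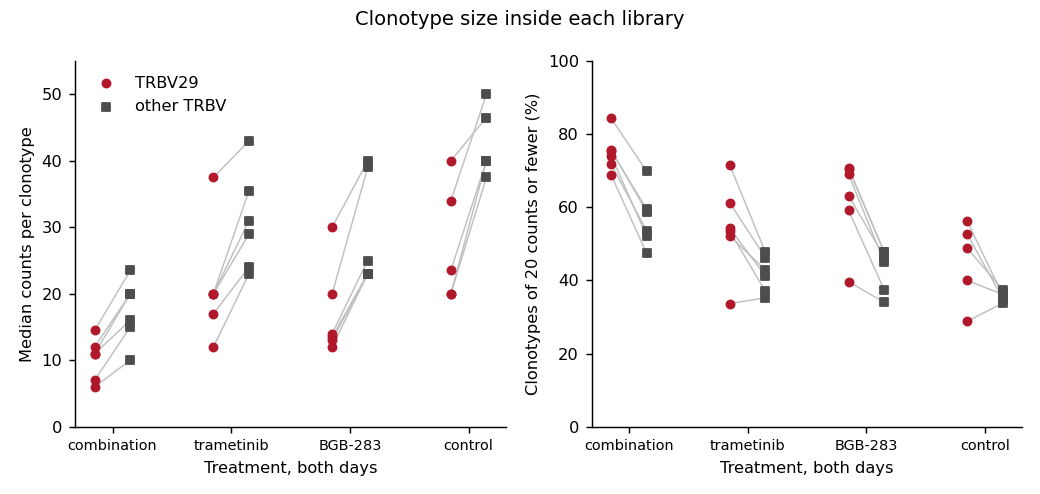
Each line joins TRBV29 (circle) to the other TRBV segments (square) within 1 library, grouped by treatment over both days; the left panel gives the median counts per clonotype and the right panel the percent of clonotypes with 20 counts or fewer. The TRBV29 median is the lower in all 23 libraries, and its share of small clonotypes is the higher in 21, directions that the choice of the segment favoured.

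Clonotypes that differ by 1 residue from one of the same V, J and length with at least 10 times the counts made up 4.10% ± 4.60 of TRBV29 and 10.9% ± 5.02 of other TRBV clonotypes per library (SD, n = 23). This measure needs a large clonotype of the same V, which the choice of the segment made scarce. The TRBV29 value was the lower in 21 of 23 libraries. The exceptions had a large TRBV29 clonotype. They were BGB-283 D11 replicate 1 (22.4% against 11.4% for other TRBV) and combination D4 replicate 3 (8.51% against 7.56%). Other libraries with a large TRBV29 clonotype had the lower TRBV29 value, among them combination D11 replicate 1 (5.16% against 5.52%). Clonotypes whose J and CDR3 were also listed under another V with more counts made up 1.02% ± 1.14 of TRBV29 and 0.557% ± 0.505 of other TRBV clonotypes, with TRBV29 the higher in 13 of 23 libraries. The part of sequence or assignment errors in the small clonotypes was not tested.

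The segment was chosen as rarely expanded in these same libraries, so its large clonotypes are described and not tested. No TRBV29 clonotype reached 1% of TRB counts in 16 of 23 libraries. In 3 libraries a single one held over 5%. In combination D11 replicate 1, a single TRBV29 clonotype joined to TRBJ2-4 with a CDR3 of 16 residues held 13.4% of the TRB counts. In BGB-283 D11 replicate 1, a TRBJ1-5 clonotype of 16 residues held 11.8%. In combination D4 replicate 3, a TRBJ2-3 clonotype of 15 residues held 9.91%. Each was the second largest TRB clonotype of its library and was listed in no other library.

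They held 69.2% of the TRBV29 counts in combination D11 replicate 1, 71.6% in BGB-283 D11 replicate 1 and 70.0% in combination D4 replicate 3. Without them the count share of TRBV29 was 6.88% in combination D11 replicate 1, 5.33% in BGB-283 D11 replicate 1 and 4.71% in combination D4 replicate 3. All 3 libraries then lay below their clonotype shares. The other segments kept their largest clonotypes, so this removal could only lower the TRBV29 count share, and no conclusion is drawn from it.

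In the other 20 libraries the largest TRBV29 clonotype held between 0.0613% and 3.38% of TRB counts, with a median of 0.447%. Only 8 TRBV29 listings reached 1% of TRB counts, among 274 TRB listings of that size, or 2.92%. Besides the 3 above, these were a TRBJ2-1 clonotype of 14 residues in trametinib D4 replicate 3 (3.38%), a TRBJ1-1 clonotype of 16 residues in control D11 replicate 2 (2.83%) and a TRBJ1-1 clonotype of 13 residues in BGB-283 D4 replicate 2 (1.497%). The last 2 were a TRBJ2-7 clonotype of 14 residues in BGB-283 D11 replicate 1 (1.16%) and a TRBJ1-6 clonotype of 15 residues in control D4 replicate 2 (1.04%). Large TRBV29 clonotypes thus occurred under every treatment.

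The question of whether drug treatment changed the use of TRBV29 was addressed with quasi-likelihood fits of edgeR over all TRBV segments and Benjamini-Hochberg adjustment. In bulk RNA, fewer cells of a clone and less receptor RNA per cell cannot be told apart. The count share averaged 7.44% ± 7.47 in combination libraries, 7.42% ± 2.68 under trametinib and 6.16% ± 5.27 under BGB-283 (n = 6 each), against 3.81% ± 2.07 in control libraries (n = 5). The log2 change against control was 0.94 ± 0.64 (SE) for the combination, with an adjusted p of 0.586 in edgeR. It was 0.92 ± 0.64 for trametinib (edgeR adjusted p = 0.635) and 0.64 ± 0.64 for BGB-283 (edgeR adjusted p = 0.640). The groups overlapped in each comparison.

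Across all 24 segments edgeR called none against control under any drug, 0% in each comparison. At an unadjusted p under 0.05 it had 0 segments for the combination, 2 for trametinib and 3 for BGB-283, and DESeq2 called 1, 1 and 2. Between the combination and trametinib the TRBV29 log2 difference in count share was 0.02 ± 0.59 (edgeR adjusted p = 0.976), and between the combination and BGB-283 it was 0.30 ± 0.59 (edgeR adjusted p = 0.780). In these comparisons edgeR again called 0%, with 1 and 2 segments at an unadjusted p under 0.05 and 1 and 0 called by DESeq2. D11 against D4 gave 0.60 ± 0.43 (edgeR adjusted p = 0.516), where edgeR called 0%, with 4 segments at an unadjusted p under 0.05 and 2 called by DESeq2. The coefficient of variation between libraries in this fit was 0.935, so these count shares were compared with low precision.

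Shares of clonotypes varied less between libraries, with a coefficient of variation of 0.139 over the 20 segments tested. The TRBV29 clonotype share averaged 13.4% ± 3.00 in combination libraries, 15.0% ± 1.66 under trametinib and 12.1% ± 1.92 under BGB-283 (n = 6 each), against 11.6% ± 2.70 in control libraries (n = 5). All 6 trametinib libraries exceeded 4 of the 5 controls, and the remaining control, at 14.0%, lay among them. The log2 change of trametinib against control was 0.29 ± 0.14 (SE), with an unadjusted p of 0.0472 and an adjusted p of 0.157 in edgeR, so it did not pass. edgeR called 0% of segments there, with 6 at an unadjusted p under 0.05 and 0 called by DESeq2.

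For the combination against control the TRBV29 log2 change was 0.14 ± 0.14 (edgeR adjusted p = 0.476), in a comparison where 15% of segments were called. For BGB-283 it was -0.02 ± 0.15 (edgeR adjusted p = 0.879), where 15% were also called. The called segments were TRBV13-2, TRBV26 and TRBV16 in the first and TRBV19, TRBV26 and TRBV2 in the second. The combination differed from BGB-283 by 0.16 ± 0.12 (edgeR adjusted p = 0.291), with 5% of segments called, and D11 from D4 by 0.09 ± 0.09 (edgeR adjusted p = 0.795), with 0% called, 1 at an unadjusted p under 0.05 and 0 by DESeq2.

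The combination against trametinib depended on the small clonotypes. With all clonotypes the TRBV29 log2 difference was -0.15 ± 0.11 (edgeR adjusted p = 0.436), with 0% of segments called, 3 at an unadjusted p under 0.05 and 0 by DESeq2. After clonotypes under 20 counts were removed it was -0.58 (edgeR adjusted p = 0.000114). In that filtered fit edgeR called 4 of 19 segments, 21.1%. The same removal turned the combination against control to -0.29 (edgeR adjusted p = 0.1501), where 21.1% of segments were also called. The pile-up at 20 counts, which lies at the edge of this filter, differed between treatments, and its part in these values was not tested.

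On the lists of segments with a known partner or ligand, TRBV29 stood among members that mostly did not pass. Of the 5 beta segments used by invariant NKT cells (TRBV13-1, TRBV13-2, TRBV13-3, TRBV29 and TRBV1), the clonotype share of 1, TRBV13-2, rose in the combination against control (log2 0.64 ± 0.20, edgeR adjusted p = 0.0254) and none passed in the other 5 comparisons. With 15% of all segments called there, 1 of 5 is near the background. Their median log2 change against control was 0.14 in the combination and 0.29 in trametinib, beside 0.14 and 0.06 over all segments tested. Of the 4 Mls-1a reactive segments (TRBV19, TRBV29, TRBV13-3 and TRBV17), 1, TRBV19, rose in BGB-283 against control (log2 0.47 ± 0.15, edgeR adjusted p = 0.0262), in a comparison where 15% of all segments were called, so 1 of 4 is also near the background. The median log2 change of these 4 against control was 0.15 in the combination, 0.06 in trametinib and -0.06 in BGB-283, beside 0.14, 0.06 and -0.05 over all segments tested. By counts no member of either list passed in any of the 6 comparisons.

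TRBV29 clonotypes joined all 12 TRBJ segments. TRBJ2-7 was the most frequent partner, with 17.4% ± 4.72 of TRBV29 clonotypes against 20.6% ± 1.88 of other TRBV clonotypes (mean of libraries, SD, n = 23), and was the lower in 19 of 23 libraries. TRBJ2-1 followed with 13.1% ± 3.18 against 14.3% ± 1.82, and TRBJ2-5 with 10.1% ± 3.84 against 12.2% ± 1.98. TRBJ1-2 held 6.0% ± 2.41 of TRBV29 clonotypes against 4.5% ± 0.96 of others, and was the higher in 17 of 23 libraries.

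The within-library differences were tested by 100000 random sign changes, adjusted over the 12 TRBJ segments. TRBJ1-2 was higher by 1.54 percentage points and TRBJ2-7 lower by 3.27 percentage points, each with an adjusted permutation p of 0.0493, and the other 10 did not pass. Over the 18 segments present in all libraries, 15.3% of 216 such tests were called, so 2 of 12 is near the background. Neither call held when the other TRBV segments were given equal weight, where both had an adjusted permutation p of 0.232. Leaving out single libraries took the number called to between 0 and 5.

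The TRBJ1 cluster as a whole held 35.8% ± 6.74 of TRBV29 clonotypes and 29.5% ± 1.70 of other TRBV clonotypes, and TRBV29 was the higher in 21 of 23 libraries. By the mean over libraries, the 6 members of the cluster were each a little above the other TRBV segments. TRBJ1-1 was the higher in only 11 of 23 libraries and TRBJ1-4 in 12. Outside the cluster, TRBJ2-2 was the higher in 17. Among the 18 segments TRBV29 was sixth in this difference, at 6.24 percentage points, behind TRBV13-1 at 11.3. The highest TRBJ1 share, 57.1%, came from the 49 TRBV29 clonotypes of BGB-283 D11 replicate 1. The share averaged 35.8% ± 2.12 in combination libraries, 32.8% ± 4.19 under trametinib and 40.4% ± 9.12 under BGB-283, against 33.9% ± 8.22 in control libraries.

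None of the TRBJ1 comparisons passed an exact two-sided permutation test within days. The difference against control was 1.69 percentage points for the combination, -1.32 for trametinib and 6.33 for BGB-283, with exact adjusted p of 0.795, 0.795 and 0.723. Leaving out one library moved the BGB-283 difference between 0.583 points (without control D11 replicate 1) and 12.1 points (without control D11 replicate 2). D11 minus D4, permuted within treatments, was 2.72 points (exact adjusted p = 0.723).

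**Figure D4:**
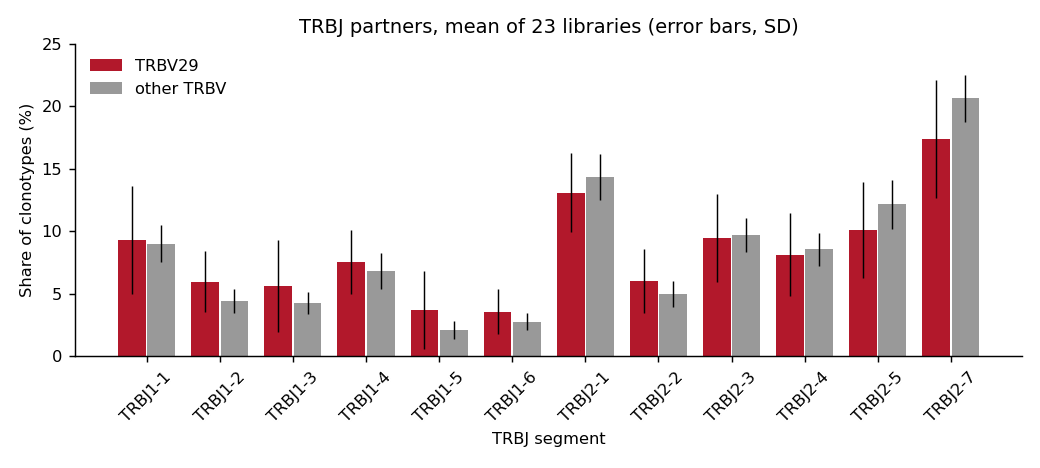
Bars give the mean percent of clonotypes joined to each of 12 TRBJ segments for TRBV29 (left of each pair) and the other TRBV segments (right) over 23 libraries, with SD as error bars. TRBJ2-7 is at 17.4% in TRBV29 and 20.6% in the others, and TRBJ1-2 at 6.0% and 4.5%.

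The CDR3 of TRBV29 clonotypes was shorter than that of other TRBV clonotypes. Counted over clonotypes, it averaged 13.7 ± 0.21 residues in TRBV29 and 14.0 ± 0.11 in the other segments (SD over 23 libraries). The difference was -0.336 ± 0.220 residues, was negative in 21 of 23 libraries, and had a permutation p of 2e-05, or 7.2e-05 adjusted over the 18 segments tested. Of those 18 segments 12 were called, 66.7%, with 6 shorter and 6 longer, so a length of its own is common among TRBV segments. TRBV20 at -0.874 and TRBV15 at -0.339 residues had shorter CDR3s, and TRBV1 at 0.693 the longest.

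The difference was not the same size with both TRBJ clusters. Among clonotypes with TRBJ2, TRBV29 averaged 13.6 ± 0.27 residues and the others 14.0 ± 0.12, and TRBV29 was shorter in 23 of 23 libraries, by 0.480 residues. Among clonotypes with TRBJ1 the means were 13.9 ± 0.23 and 13.9 ± 0.13, and TRBV29 was shorter in 13 of 23. The gap between the clusters was not tested. At equal use of TRBJ the difference was -0.368 residues (permutation p = 1e-05, the smallest that 100000 sign changes can give), an alternative added after the data were seen.

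When clonotypes were weighted by counts the difference was 0.114 residues with a permutation p of 0.393 and the opposite direction. Of TRBV29 clonotypes, 6.20% ± 2.88 had 11 residues against 3.27% ± 0.78 of the others, and 6.92% ± 4.30 had 16 residues against 10.6% ± 1.14.

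**Figure D5:**
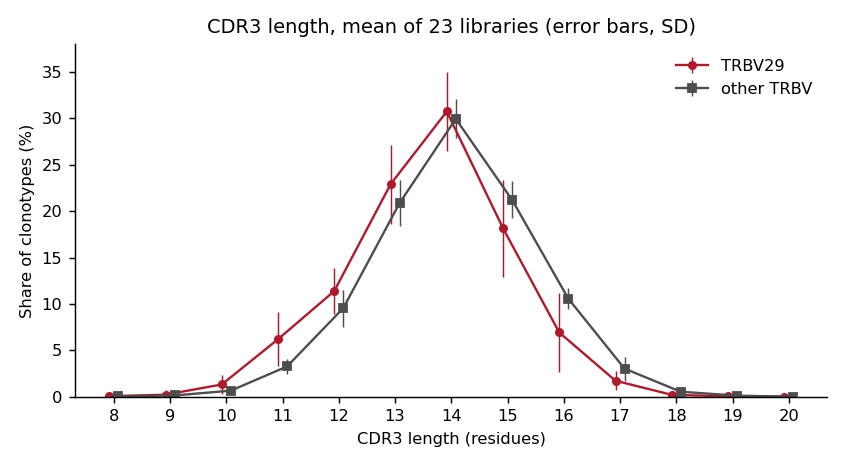
The percent of clonotypes at each CDR3 length in residues is given for TRBV29 (circles) and the other TRBV segments (squares), as the mean of 23 libraries with SD. TRBV29 lies above the others at 11 residues (6.20% and 3.27%) and below them at 16 (6.92% and 10.6%).

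By treatment, the mean CDR3 length of TRBV29 was 13.78 ± 0.15 residues in combination libraries, 13.65 ± 0.11 under trametinib and 13.75 ± 0.22 under BGB-283, against 13.47 ± 0.26 in control libraries. The stratified difference was 0.284 residues for the combination, 0.149 for trametinib and 0.257 for BGB-283, with exact permutation p of 0.04, 0.18 and 0.07 and adjusted p of 0.08, 0.18 and 0.0933. D11 exceeded D4 by 0.179 residues, at 13.77 ± 0.15 and 13.58 ± 0.22 (exact permutation p = 0.0235, adjusted 0.08). None of these passed. Without control D4 replicate 2 the combination and BGB-283 differences passed, at 0.354 and 0.327 residues with exact adjusted p of 0.04. Without control D4 replicate 1 they were 0.207 and 0.180 residues, with exact adjusted p of 0.16 and 0.227. With clonotypes under 20 counts removed, the exact adjusted p were 0.26 and 0.36. The lowest control value, 13.07 residues, rested on 15 clonotypes.

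The residue at position 5 of the CDR3, counted from 1 at its N-terminal cysteine, lies near the end of the germline V sequence. Over pooled clonotypes leucine stood there in 33.8% of TRBV29 and 23.3% of others, phenylalanine in 10.9% and 4.29%, and serine in 12.4% and 6.48%. Aspartate stood there in 2.01% and 8.65%. Leucine was not particular to TRBV29, since single segments ranged widely, with 46.6% in TRBV16, 47.1% in TRBV31 and 4.03% in TRBV19. These shares were not tested.

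Few TRBV29 clonotypes were shared between libraries. Of 4686, 214 (4.57%) were listed in more than 1 library, against 1137 of 30703 other TRBV clonotypes (3.70%). Per library, 10.1% ± 3.33 of TRBV29 clonotypes and 9.32% ± 2.11 of the others were also listed elsewhere. The shared TRBV29 clonotypes averaged 13.1 residues and the private ones 13.8, beside 13.6 and 14.0 in other TRBV.

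The most widely shared TRBV29 clonotype, a TRBJ2-1 join of 14 residues with proline at residue 5, was listed in 8 libraries with 3 to 61 counts in each. Those were 3 combination, 3 trametinib and 2 BGB-283 libraries, and no control library listed it. A TRBJ1-1 clonotype of 13 residues followed in 7 libraries with 6 to 120 counts, and a TRBJ2-4 clonotype of 13 residues in 5 with 5 to 33 counts. A further 14 clonotypes were listed in exactly 4 libraries, of which the pair with the most summed counts is described. A TRBJ1-2 clonotype of 14 residues with arginine at residue 5 was in 2 combination and 2 trametinib libraries, and held 140 to 1274 counts there. A TRBJ2-1 clonotype of 11 residues was in 4 libraries with 13 to 329 counts. None of these 5 was listed in a control library, but 3 of the 17 clonotypes in 4 or more libraries were. Of the 214 shared TRBV29 clonotypes, 165 were listed in a combination library, 121 in a trametinib library, 78 in a BGB-283 library and 28 in a control library. Combination libraries had 122 to 623 TRBV29 clonotypes, against 15 to 105 in control libraries, so these counts are not read as a difference.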

How the data were processed

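T-cell receptor transcripts were measured in 23 libraries, prepared with the QIAGEN QIAseq immune repertoire kit per the labels' protocols. The authors deposited raw whole-number counts for each V, J and translated CDR3. The build is GRCh38 per the submitters' processing notes, although the samples are mouse, so no coordinates are printed. The sources used here name neither an aligner nor a clonotype caller, and state no filter. All 24 TRBV names matched RefSeq symbols. Entries with an unresolved CDR3 residue (182 of 35571 TRB entries) were left out.

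Counts and distinct clonotypes per TRBV segment were fitted with edgeR 4.0.16 (quasi-likelihood, 8 groups, library total as size, low segments filtered, adjusted p under 0.05), with DESeq2 1.42.0 as an alternative. Mean CDR3 length and TRBJ1 share were compared by exact permutation within days or treatments, and TRBV29 with other TRBV by 100000 random sign changes over libraries. Wilson intervals are at 95%. The code was tested on simulated data. An estimated molecule number was each count divided by 20 and rounded up; thinning was to 32534 TRB counts. No pair of columns was identical. Deviations of libraries with the same replicate number were correlated over 0.1 in every pair for 5 of 28 pairs of groups (mean 0.0901), so the numbers were not taken to pair libraries.

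Named segments were TRBV29, those nearest it in the ratio of counts to clonotypes, its neighbours in that order, the largest and most shared TRBV29 clonotypes, TRBJ segments past the threshold, and 2 lists from textbook knowledge. The members and lists were chosen with earlier results of these data known.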

Additional observations from a re-analysis of the deposited data

Results flagged for a closer look

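The TRBV29 share of TRB clonotypes changed between days in opposite directions in BGB-283 and control libraries. In BGB-283 it was 11.2%, 11.99% and 8.95% at D11, below all 3 D4 libraries at 13.9%, 14.2% and 12.5%, a difference in means of -2.81 percentage points. In control it was 12.8% and 14.0% at D11, above all 3 D4 libraries at 7.01%, 12.5% and 11.8%, a difference of 2.95 points. BGB-283 minus control was thus -5.77 points. All pairs of treatments were scanned for such opposite changes in count share, clonotype share, CDR3 length and TRBJ1 share. Only this pair and measure was flagged. In edgeR the day difference between BGB-283 and control was -0.64 ± 0.29 (log2, SE), with an unadjusted p of 0.0351 and an adjusted p of 0.205, so it did not pass. TRBV17, TRBV31 and TRBV26 also had an unadjusted p under 0.05 in that edgeR comparison, and no segment passed. The lowest control D4 value rested on 15 TRBV29 clonotypes. The day difference between combination and BGB-283 was larger, 0.67 ± 0.23, with an unadjusted p of 0.00688 and an adjusted p of 0.117 in edgeR, and did not pass either. TRBV12-1 and TRBV14 also had an unadjusted edgeR p under 0.05 there.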

How the results depend on the processing

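The mean log2 ratio of count share to clonotype share stayed below 0 under every alternative, from -1.47 (neighbours of larger clonotypes removed) to -0.85 (the 10 largest TRB clonotypes removed). With those 10 removed, or with the largest clonotype of every segment removed (-1.05, with this and the neighbour removal chosen after seeing the data), all 23 libraries lay below 0. Both removals take out the large TRBV29 clonotype of each library that had lain above 0. The segment was also chosen for this ratio, so no conclusion is drawn from its sign. The rank of TRBV29 by the ratio of shares averaged over libraries ran from 1 to 4. Leaving out one library gave log2 count-share differences of 0.11 to 1.22 (combination against control), 0.72 to 1.20 (trametinib against control), -0.021 to 0.92 (BGB-283 against control), -0.81 to 0.27 (combination against trametinib), -0.53 to 0.96 (combination against BGB-283) and 0.19 to 0.90 (D11 against D4), none passing. For clonotype shares the ranges were -0.091 to 0.042 (BGB-283 against control), 0.038 to 0.203 (combination against control), 0.060 to 0.229 (combination against BGB-283) and 0.043 to 0.126 (D11 against D4). They were 0.222 to 0.349 for trametinib against control and -0.253 to -0.084 for combination against trametinib, again with none passing.

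Among differences that did not pass, the sign turned for combination against trametinib by counts with the replicate block (-0.056), with clonotypes under 20 counts removed (-0.018) and by exact permutation of log2 odds (-0.56), and for combination against BGB-283 by that permutation (-0.027). For clonotypes, BGB-283 against control turned with TMM factors (0.018) and with the permutation (0.038). Removing clonotypes under 20 counts turned combination against control (-0.29), brought combination against trametinib past the threshold (-0.58), and turned the TRBJ1 difference of D11 against D4 (-1.22 points). Weighting by counts turned the CDR3 length of trametinib against control (-0.243 residues), the TRBJ1 share of combination against control (-10.1 points) and TRBV29 length against other TRBV (0.114 residues). The cause was not tested. The number of TRBJ segments called was 0 with other TRBV weighted equally and with the mean of 8 group means. The replicate block changed no call.

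Leaving out one library gave CDR3 length differences of 0.207 to 0.354, 0.180 to 0.327 and 0.141 to 0.214 residues for combination and BGB-283 against control and D11 against D4. Trametinib against control ran from 0.072 to 0.219. D11 against D4 passed without combination D4 replicate 3 (0.201), BGB-283 D4 replicate 1 (0.210) or control D4 replicate 2 (0.214). TRBJ1 differences ran from -4.06 to 7.43 points (combination), from -7.07 to 4.43 (trametinib), from 0.583 to 12.1 (BGB-283) and from -0.15 to 5.59 (D11 against D4). TRBJ calls ran from 0 to 5. TRBJ2-7 also missed the threshold with clonotypes under 20 counts removed (-2.54 points), and both TRBJ calls were lost in 17 of 23 such runs each. Depth limits the control libraries most, with 15 to 105 TRBV29 clonotypes.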
